A study of Mus musculus with 19 samples.

Results

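A set of 42 genes whose products carry out mitosis and cytokinesis was followed across fetal and adult blood stem and progenitor cells of the mouse. The 42 genes were chosen by symbol from a list of mitotic cyclins and kinases, spindle checkpoint proteins, kinesins, kinetochore proteins and cytokinesis proteins. All 42 were found among the 25124 genes of the deposited count table, and all 42 passed the filter on low counts, as did 14720 genes in all. The series measured messenger RNA (RNA-seq) and open chromatin (ATAC-seq, in which a transposase cuts accessible DNA) in 4 sorted populations of C57BL/6 mice, to compare fetal with adult cells. LMPP are lymphoid-primed multipotent progenitors and HSC are hematopoietic stem cells. Each was taken from the fetal liver at E14.5, the stage named by days after conception (FL) and from the adult bone marrow at 12 weeks of age (ABM). RNA-seq covered 3 FL LMPP, 2 FL HSC, 3 ABM LMPP and 3 ABM HSC libraries, and ATAC-seq covered 2 libraries of each population. All gates took living c-Kit+ Sca1+ cells without CD3, Gr1, B220 and Ter119. LMPP were then CD48+ CD150- Flt3+, and HSC were CD48- CD150+ Flt3-. The adult gates also left out CD11b+ cells, a step not named for the fetal ones. No genotype other than the strain is given. The series text calls the replicates biological, without saying whether they came from separate animals or pools, so a p-value here measures the spread between these libraries.

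Mitosis hands a copy of each chromosome to each daughter cell, and cytokinesis then cuts the cell between them. Cyclin-dependent kinase 1 with its cyclins starts the process, the spindle checkpoint holds it until every chromosome is attached, and the anaphase-promoting complex ends it by having cyclins destroyed. Most of these genes are read out late in the cell cycle, so their messenger RNA is a common mark of proliferating cells. Adult bone marrow HSC are known as mostly resting cells, while fetal liver HSC and multipotent progenitors are known to divide more often.

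Many late cell cycle genes share 2 short promoter elements. One is the cell cycle homology region (CHR), with the core TTTGAA, which the Lin54 subunit of the MuvB complex binds. The other is the CCAAT box, which the factor NF-Y binds. Promoters of 250 bases before to 50 bases after the annotated start were available from RefSeq (GRCm38.p6, the coordinates of the authors' mm10) for 35 of the 42 genes, and those of the other 7 (Ccna2, Cdc25c, Foxm1, Aurkb, Incenp, Tpx2 and Kif20a) were not used here. The 7 stretches below are the parts of these promoters from 130 bases before the start to 10 bases into the transcript. They are shown because the results turn on Ect2, Kif23 and Kif15, and because Cdk1, Ube2c, Cenpf and Top2a carry the shared elements in other roles. Each is written 5′ to 3′ on the gene's own strand, and capitals mark both elements, including the reverse complement of each where it is read from the opposite strand.
Cdk1: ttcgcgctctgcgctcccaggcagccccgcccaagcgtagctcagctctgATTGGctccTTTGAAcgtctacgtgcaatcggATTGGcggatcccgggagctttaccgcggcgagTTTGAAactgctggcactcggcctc
Ube2c: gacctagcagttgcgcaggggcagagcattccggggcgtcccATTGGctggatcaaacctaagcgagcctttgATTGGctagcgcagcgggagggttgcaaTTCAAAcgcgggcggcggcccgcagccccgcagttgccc
Kif15: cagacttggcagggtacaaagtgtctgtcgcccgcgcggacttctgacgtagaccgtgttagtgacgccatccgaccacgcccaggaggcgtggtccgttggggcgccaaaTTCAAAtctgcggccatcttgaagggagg
Cenpf: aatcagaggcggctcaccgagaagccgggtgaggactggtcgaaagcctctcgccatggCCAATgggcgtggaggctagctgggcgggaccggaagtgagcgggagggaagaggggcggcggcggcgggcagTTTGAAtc
Top2a: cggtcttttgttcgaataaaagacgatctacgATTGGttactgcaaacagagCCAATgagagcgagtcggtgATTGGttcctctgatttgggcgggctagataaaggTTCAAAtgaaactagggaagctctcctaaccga
Ect2: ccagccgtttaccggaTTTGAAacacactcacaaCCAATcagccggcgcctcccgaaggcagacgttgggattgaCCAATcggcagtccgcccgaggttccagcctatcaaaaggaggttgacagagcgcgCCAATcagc
Kif23: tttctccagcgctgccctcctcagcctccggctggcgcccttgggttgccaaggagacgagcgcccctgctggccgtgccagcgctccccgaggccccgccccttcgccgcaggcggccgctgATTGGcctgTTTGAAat

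The stretches lie at chr10:69352903-69353042 (minus strand) for Cdk1, chr2:164769799-164769938 (plus) for Ube2c, chr9:122950951-122951090 (plus) for Kif15, chr1:189688077-189688216 (minus) for Cenpf, chr11:99024180-99024319 (minus) for Top2a, chr3:27153869-27154008 (minus) for Ect2 and chr9:61946790-61946929 (minus) for Kif23. Counted from 1 at the first transcribed base, with -1 just before it, the CHR core of Kif23 covers bases 3 to 8 and lies beside a CCAAT box at -7 to -3. Cdk1 has cores at -71 to -66 and at -15 to -10, on either side of a CCAAT box at -48 to -44. In Ect2 the core in the stretch sits farther upstream, at -114 to -109, and another lies at 40 to 45, outside the stretch.

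Over the full promoters of 300 bases, TTTGAA on either strand was found in 26 of 35 mitosis genes (74.3%), against 1353 of 11421 other tested genes with a promoter sequence (11.8%). Within 50 bases of the start it was found in 24 of 35 (68.6%), against 305 of 11421 (2.67%). CCAAT on either strand was found in 25 of 35 (71.4%), against 38.7% of the other genes, and both elements in 21 of 35 (60.0%), against 4.89%. A pair of CCAAT boxes 31 to 33 bases apart was found in 6 of 35 (17.1%), against 1.51%. The variant core TTCGAA, which reads the same on both strands, was found in 4 of 35 (11.4%), against 2.11%. Mad2l1, Plk4, Birc5, Nusap1 and Nuf2 held none of these letters in this window. The promoter of Kif2c starts 3852 bases from the start in the count table, and the other 34 starts were the same.

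**Figure D1:**
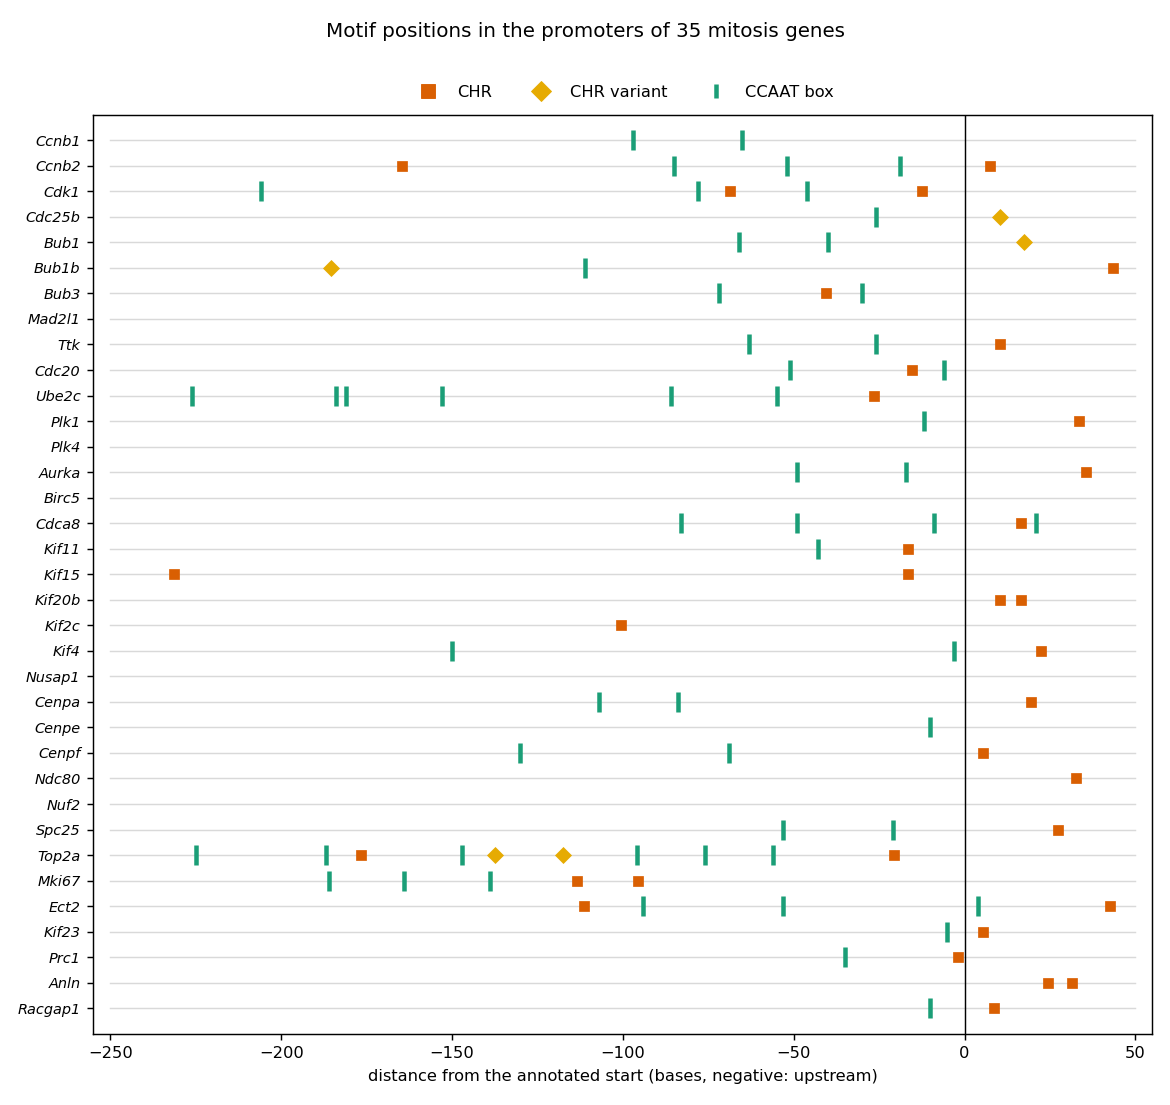
Positions of TTTGAA (CHR, squares), TTCGAA (CHR variant, diamonds) and CCAAT (bars) on either strand in the promoters of 35 mitosis genes, in bases from the annotated start, with genes ordered by role. The squares gather near the start, within 50 bases of it in 24 of the 35 genes.

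Levels are given as CPM, counts brought to a common library total with TMM scaling. Library totals ran from 19799398.5 to 64783926.5 counts. All 42 genes had counts in all 11 libraries, of at least 287 counts, and their levels ran from 9.34 to 771 CPM. The gates were visible in the RNA. Flt3, the LMPP gate's receptor, averaged 492 ± 21.7 CPM in FL LMPP, 29.0 ± 1.12 in FL HSC, 974 ± 80.7 in ABM LMPP and 13.4 ± 3.61 in ABM HSC (SD, n = 3, 2, 3 and 3). Slamf1, which encodes CD150, was under 1 CPM in each LMPP library, against 52.7 to 74.0 CPM in the HSC libraries. Of other lists, the summed level of 8 macrophage markers ran from 12.9 to 49.5 CPM over all libraries and that of 7 neutrophil markers from 46.9 to 250, of which Prtn3, a gene also read in progenitors, made up most. The 9 hepatocyte markers summed to 67.4 to 159 CPM in FL LMPP, 56.4 to 139 in FL HSC, 220 to 284 in ABM LMPP and 54.4 to 81.8 in ABM HSC. In each group most of that sum came from Trf. Between FL LMPP and ABM LMPP most other members went the other way from Trf. Of the 9, all 9 means were higher in FL HSC than in ABM HSC, with 0 called. In FL LMPP 8 of 9 were above ABM LMPP, with Alb and Apoa1 called higher and Trf lower. Alb was at 0 in both adult groups, and had 13.2, 0.887 and 4.42 CPM in FL LMPP 1 to 3 and 0.236 and 13.7 CPM in FL HSC 1 and 2. The part of liver RNA in the mitosis gene differences was not tested. Erythroblast and megakaryocyte markers are given beside the results they move with.

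A set of 3 libraries stood apart in how the mitosis genes followed exon length. In FL LMPP 1, ABM LMPP 3 and ABM HSC 3, genes with long exons were low and genes with short exons were high relative to the other libraries of the group. Over the 42 genes, the deviation from the other libraries correlated with log2 exon length at r = -0.69 in FL LMPP 1, -0.71 in ABM LMPP 3 and -0.69 in ABM HSC 3, against -0.22, -0.32 and -0.40 over all tested genes. In the other 2 libraries of each of these groups r was between 0.46 and 0.71. Deviations taken in this way cancel within a group, so a fall in a library brings a rise in the others. These rises are therefore no separate observation. Every group other than FL HSC held 1 such library. In FL HSC r was -0.05 and 0.05, which mirror each other by the same rule, but there FL HSC 1 exceeded FL HSC 2 in 41 of the 42 genes, against 47.0% of all genes tested. The edgeR counts of calls over the 42 genes are therefore given below with and without the 3 libraries. Counts by role without them are given for LMPP against HSC in the closing observations. Other counts include all 11 libraries unless stated otherwise. The chemistry keeps no strand, and 7 of the 42 genes overlap another gene, so reads of Ccna2 and Exosc9, Cdc20 and Elovl1, Nusap1 and Oip5, and Kif20a and Cdc23, which lie on opposite strands, cannot be told apart where they overlap. Foxm1 overlaps Tex52, Kif20b overlaps Mir1950 and Tpx2 overlaps Mir5622 on the same strand.

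**Figure D2:**
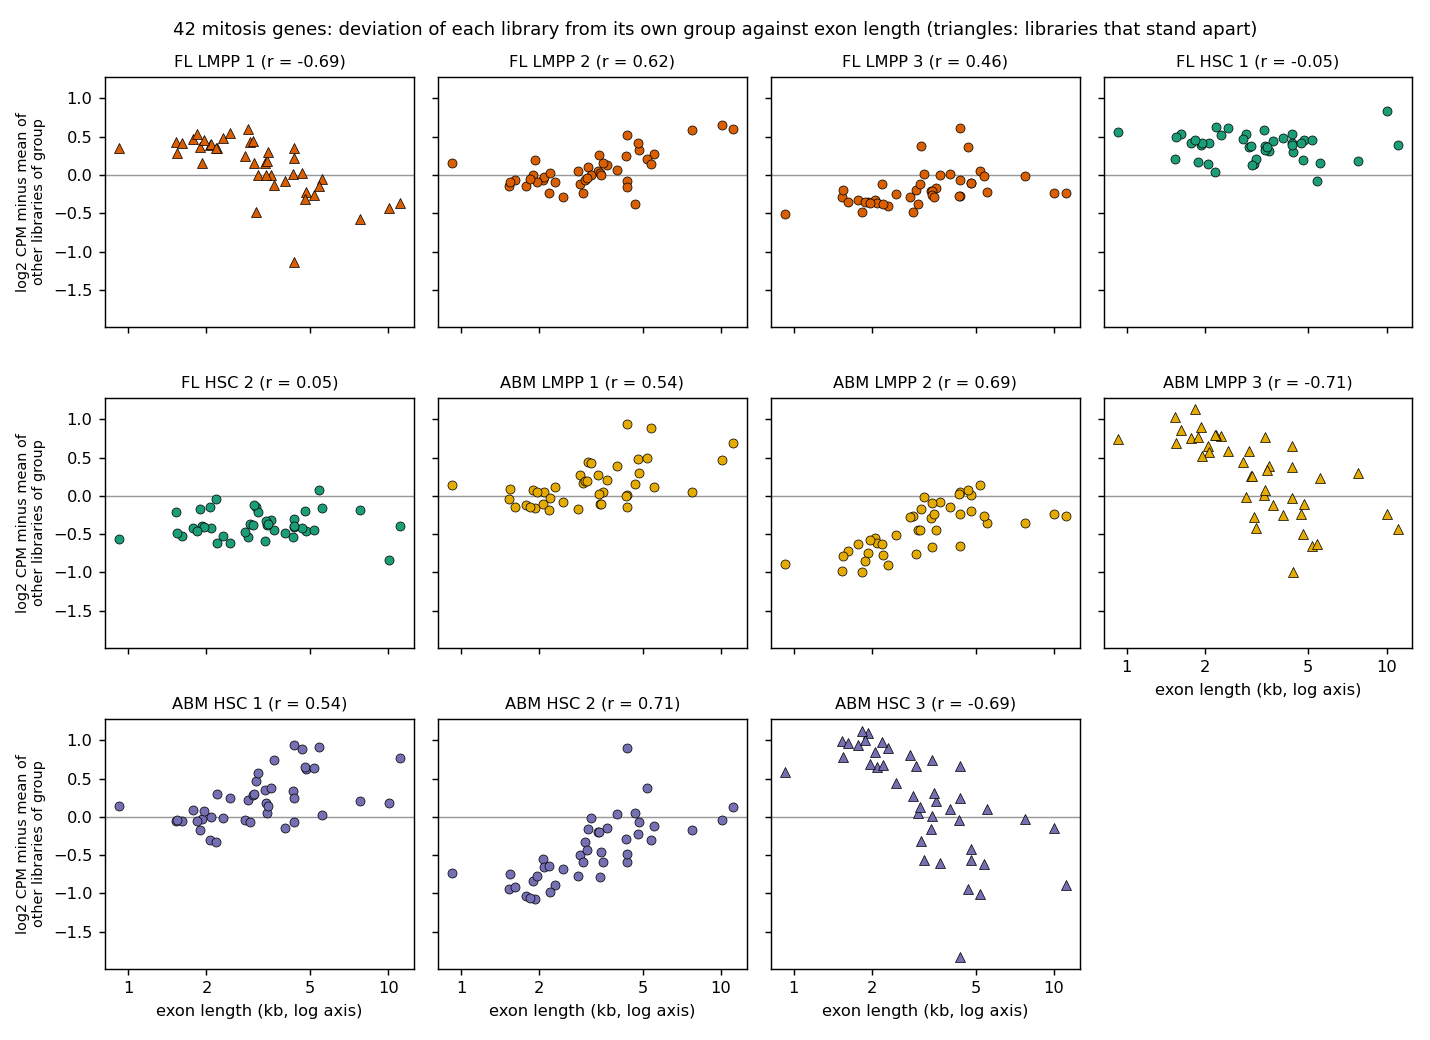
Deviation of each mitosis gene in a library from the mean of the other libraries of its group (log2 CPM, vertical axis) against its exon length (kb, log axis), 1 panel per library. Points fall with length in FL LMPP 1, ABM LMPP 3 and ABM HSC 3 (triangles, r = -0.69 to -0.71). They rise with it in the other libraries of those groups, since deviations cancel within a group.

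Summed over the 42 genes, the mitosis transcripts made up 8907 ± 935 CPM in FL LMPP and 5214 ± 985 in FL HSC, and 7813 ± 1510 CPM in ABM LMPP and 3931 ± 771 in ABM HSC (mean ± SD, n = 3, 2, 3 and 3). Each LMPP library was above each HSC library in this sum, from 6184 to 9827 CPM in LMPP and from 3074 to 5910 CPM in HSC. Levels of different genes were compared per kilobase of exon. On that scale Ube2c, the ubiquitin-conjugating enzyme of the anaphase-promoting complex, was highest in 3 groups, with 342 CPM per kb in FL LMPP, 155 in FL HSC and 245 in ABM LMPP. In ABM HSC it stood at 82.5 CPM per kb, below the checkpoint protein gene Bub3 at 148 and the cyclin gene Ccnb2 at 110. Cenpf, which encodes a large kinetochore-associated protein, was lowest in every group, at 4.95 CPM per kb in FL LMPP, 6.35 in FL HSC, 8.53 in ABM LMPP and 3.57 in ABM HSC. In bulk libraries such as these, fewer dividing cells and less of the RNA per dividing cell cannot be told apart.

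Progenitors carried more mitotic RNA than stem cells at both ages. In ABM LMPP against ABM HSC, 32 of the 42 genes rose and 0 fell at an adjusted p under 0.05 (edgeR quasi-likelihood test, Benjamini-Hochberg over all 14720 genes), where 7.76% of all genes tested rose and 9.33% fell. FL LMPP exceeded FL HSC in 12 genes and were lower in 0 by the same test, where 8.21% of all genes rose and 9.85% fell. DESeq2 called 35 higher in the adult comparison (10.3% of all genes it tested) and 19 in the fetal one (11.8%). It called 0 lower in either, where 12.6% and 13.6% of all genes were lower. At an unadjusted p under 0.05, 0 mitosis genes were lower in either, where 2426 and 2643 of all 14720 genes were. The median log2 difference over the 42 genes was 0.97 in the adult comparison, with a range of 0.41 to 2.40, and 0.72 in the fetal one, with a range of -0.36 to 1.28, against medians of -0.05 and -0.08 over all genes tested. The libraries of the groups did not overlap, with LMPP higher, for 31 of the 42 genes in the adult comparison (13.7% of all genes) and for 35 in the fetal one (27.6%). All 12 genes called in the fetal comparison were among the 32 called in the adult one (100% of the fetal and 37.5% of the adult calls), and these comparisons share no library. Without the 3 libraries that stand apart, 38 genes were higher in the adult comparison and 27 in the fetal one, and calls over all genes rose too, to 14% and 17.9% higher and 15.9% and 20.6% lower. The fetal count fell to 0 without FL HSC 2 and to 5 without FL HSC 1, and the adult count to 14 without ABM LMPP 1, 15 without ABM HSC 2 and 20 without ABM LMPP 3. In these settings the median log2 difference of the 42 genes was 0.59 without FL HSC 2 and 0.92 without FL HSC 1 in the fetal comparison, and 0.98 without ABM LMPP 1, 0.84 without ABM HSC 2 and 0.84 without ABM LMPP 3 in the adult one. With the replicate number as a block, which sets adult libraries of the same number together, Ccnb2 (adjusted p = 0.041), Cdc20 (0.046), Plk1 (0.048) and Cdca8 (0.04) were also called by edgeR, for 36 of 42. Whether those libraries form true pairs is not known. Megakaryocyte markers moved the opposite way: 8 of them summed to 225 to 392 CPM in FL LMPP, against 802 to 841 in FL HSC, and to 81.0 to 103 CPM in ABM LMPP, against 1530 to 2470 in ABM HSC. The 12 erythroblast markers were also lower in sum, at 213 to 437 CPM in FL LMPP against 994 to 1110 in FL HSC, and at 44.2 to 93.1 CPM in ABM LMPP against 80.4 to 154 in ABM HSC. Of them 5 were called lower in FL LMPP (Epb42, Klf1, Hbb-bt, Hbb-b1 and Rhag) and 3 in ABM LMPP (Epb42, Klf1 and Rhag). The part of either marker list in the mitosis gene differences was not tested.

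**Figure D3:**
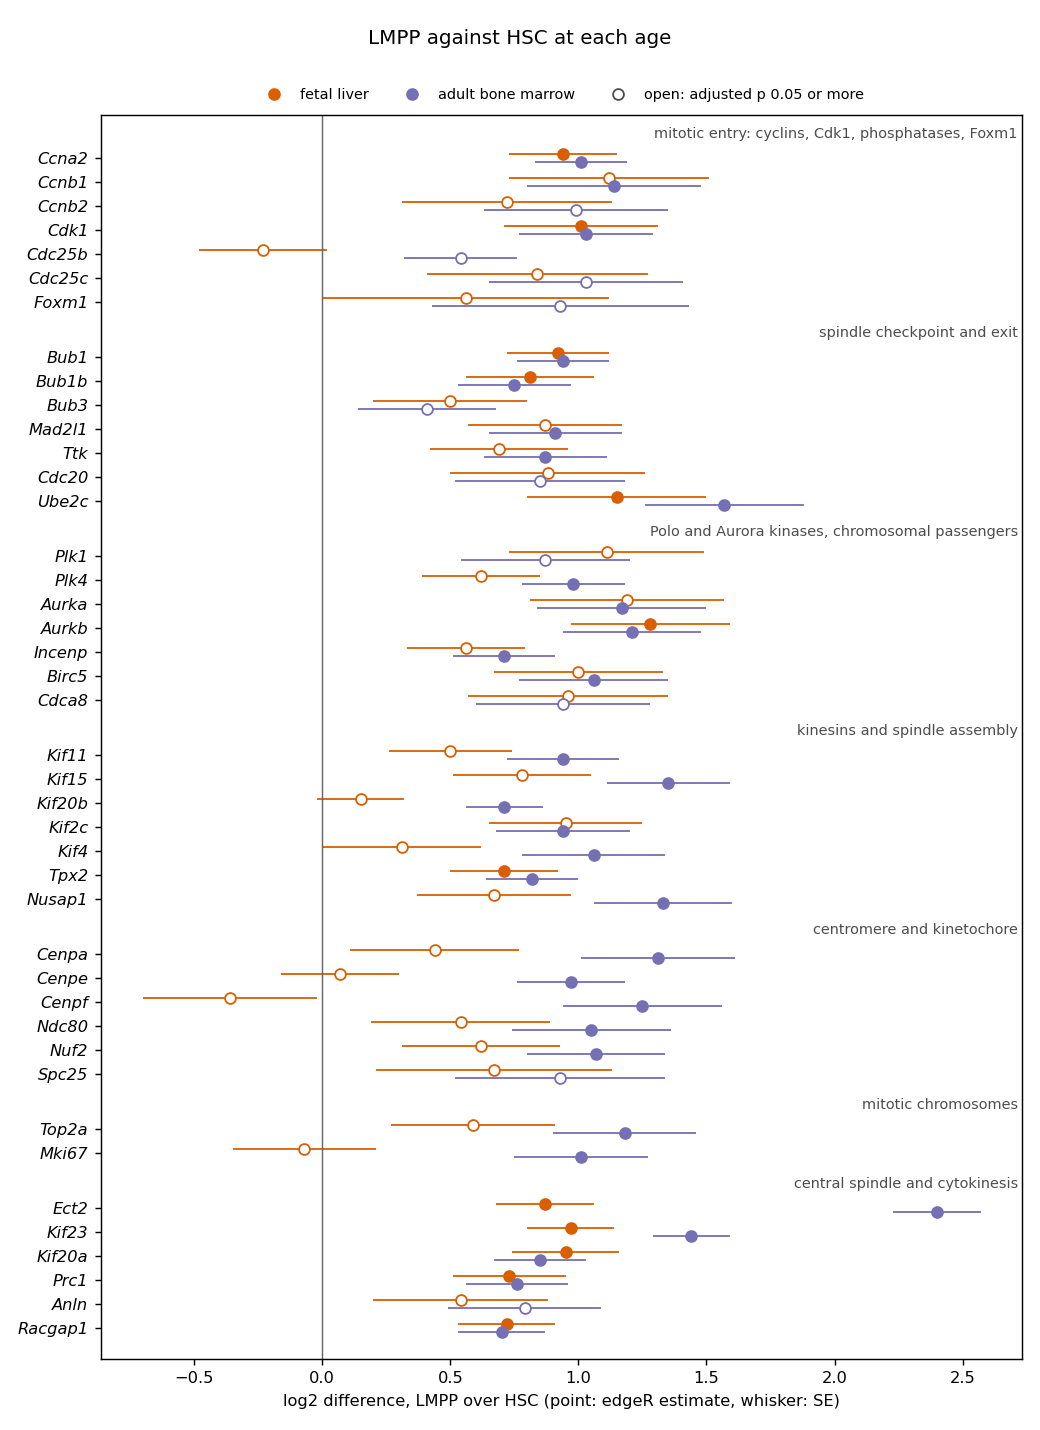
Log2 difference of LMPP over HSC (edgeR estimate, whisker SE) for each of the 42 mitosis genes in the fetal liver and in the adult bone marrow, ordered by role, with filled points for an adjusted p under 0.05. All 42 adult points lie above 0, led by Ect2 at 2.40, and 39 of the 42 fetal points lie above 0.

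Of 7 genes of mitotic entry, 3 rose in ABM LMPP against ABM HSC and 2 in FL LMPP against FL HSC. Ccna2, a cyclin that acts from DNA synthesis into mitosis, had 453, 431 and 382 CPM in FL LMPP 1 to 3, against 264 and 175 CPM in FL HSC 1 and 2. In the adult it had 385, 296 and 342 CPM in ABM LMPP 1 to 3, against 199, 154 and 157 CPM in ABM HSC 1 to 3. Neither pair of groups overlapped, and the log2 differences were 0.94 ± 0.21 (SE, adjusted p = 0.012 by edgeR) in the fetal liver and 1.01 ± 0.18 (adjusted p = 0.004) in the bone marrow. Cdk1, the kinase of mitotic entry, had 345, 282 and 258 CPM in FL LMPP against 167 and 126 CPM in FL HSC, and 225, 165 and 303 CPM in ABM LMPP against 107, 83.5 and 149 CPM in ABM HSC. All its LMPP libraries were above all HSC libraries of the same age, with log2 differences of 1.01 ± 0.30 (adjusted p = 0.042 by edgeR) and 1.03 ± 0.26 (adjusted p = 0.022). Ccnb1, the main cyclin partner of Cdk1, had 771, 591 and 512 CPM in FL LMPP against 339 and 236 CPM in FL HSC, and 410, 255 and 557 CPM in ABM LMPP against 173, 116 and 264 CPM in ABM HSC. Its adult groups overlapped, since ABM LMPP 2 was below ABM HSC 3, and its differences of 1.12 ± 0.39 (adjusted p = 0.072 by edgeR) and 1.14 ± 0.34 (adjusted p = 0.043) fell on different sides of the threshold. Ccnb2, Cdc25c and Foxm1 had log2 differences of 0.56 to 1.03 and passed in neither comparison. Cdc25b, a phosphatase that activates Cdk1, had 22.5, 29.5 and 33.4 CPM in FL LMPP against 35.0 and 31.7 CPM in FL HSC, a log2 difference of -0.23 ± 0.25.

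Among 7 genes of the spindle checkpoint and mitotic exit, 5 rose in ABM LMPP against ABM HSC and 3 in FL LMPP against FL HSC. Ube2c had 367, 335 and 246 CPM in FL LMPP against 170 and 115 CPM in FL HSC, and 230, 143 and 305 CPM in ABM LMPP against 78.7, 52.7 and 97.0 CPM in ABM HSC. Both pairs of groups were apart, by 1.15 ± 0.35 (log2, adjusted p = 0.048 by edgeR) in the fetal liver and by 1.57 ± 0.31 (adjusted p = 0.0066) in the bone marrow, the highest adult value of the role. Bub1, a checkpoint kinase at the kinetochore, had 160, 179 and 141 CPM in FL LMPP against 100 and 69.2 CPM in FL HSC, and 100, 101 and 98.8 CPM in ABM LMPP against 60.4, 45.2 and 50.8 CPM in ABM HSC. Its differences were 0.92 ± 0.20 (adjusted p = 0.013 by edgeR) and 0.94 ± 0.18 (adjusted p = 0.0049). Bub1b, which encodes the checkpoint protein BubR1, had 290, 326 and 307 CPM in FL LMPP against 202 and 148 CPM in FL HSC, and was called in both comparisons with differences of 0.81 ± 0.25 (adjusted p = 0.044 by edgeR) and 0.75 ± 0.22 (adjusted p = 0.038). Ttk, the kinase that recruits the checkpoint, had 74.4, 57.9 and 65.2 CPM in ABM LMPP against 39.4, 28.3 and 40.3 CPM in ABM HSC (0.87 ± 0.24, adjusted p = 0.031 by edgeR). Bub3, the binding partner of Bub1 and BubR1, had the smallest adult difference of the 42 genes, at 0.41 ± 0.27 (adjusted p = 0.35 by edgeR). It had 377, 308 and 534 CPM in ABM LMPP and 255, 227 and 433 CPM in ABM HSC, so the groups overlapped, although ABM LMPP was higher in all 3 pairs of the same number. With the replicate block its adjusted p was 0.26 by edgeR, and 0.01 in the block fit of only these 2 groups, which was added after the data were seen and called all 42 genes. Leaving out the 3 libraries that stand apart gave an adjusted p of 0.017 by edgeR.

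The Polo and Aurora kinases and the chromosomal passengers, which correct attachments and act again in cytokinesis, rose in 5 of 7 genes in ABM LMPP against ABM HSC. Only Aurkb of the 7 was called in FL LMPP against FL HSC. All 7 were higher at an unadjusted p under 0.05 (2265 of all 14720 genes), and DESeq2 called 4 (11.8% of all genes). Aurkb, the kinase of the passenger complex, had 375, 292 and 257 CPM in FL LMPP against 145 and 109 CPM in FL HSC, and 253, 190 and 315 CPM in ABM LMPP against 109, 73.6 and 144 CPM in ABM HSC. Its fetal difference of 1.28 ± 0.31 (log2, adjusted p = 0.019 by edgeR) was the highest of the 42 genes, and its adult difference was 1.21 ± 0.27 (adjusted p = 0.012). Plk4, the kinase of centriole copying, had 141, 113 and 165 CPM in ABM LMPP against 82.9, 53.0 and 76.9 CPM in ABM HSC (0.98 ± 0.20, adjusted p = 0.0083 by edgeR). Birc5, which encodes the passenger protein survivin, had 283, 263 and 237 CPM in FL LMPP against 147 and 114 CPM in FL HSC, and 198, 153 and 298 CPM in ABM LMPP against 102, 69.1 and 140 CPM in ABM HSC. Its groups did not overlap at either age, with differences of 1.00 ± 0.33 (adjusted p = 0.058 by edgeR) in the fetal liver and 1.06 ± 0.29 (adjusted p = 0.028) in the bone marrow. Aurka, the spindle pole kinase, had 274, 231 and 196 CPM in FL LMPP against 108 and 96.3 CPM in FL HSC, a difference of 1.19 ± 0.38 (adjusted p = 0.052 by edgeR). Plk1, a kinase of many mitotic steps, had 233, 200 and 165 CPM in FL LMPP against 112 and 72.5 CPM in FL HSC and missed the threshold in both comparisons (1.11 ± 0.38, adjusted p = 0.065 by edgeR, and 0.87 ± 0.33, adjusted p = 0.098).

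All 7 kinesins and spindle assembly genes rose in ABM LMPP against ABM HSC, and 1, Tpx2, rose in FL LMPP against FL HSC. Kif15, a motor that keeps spindle poles apart, had 105, 84.5 and 66.7 CPM in ABM LMPP against 44.3, 29.5 and 26.9 CPM in ABM HSC (1.35 ± 0.24, adjusted p = 0.0038 by edgeR). In the fetal liver it had 105, 148 and 116 CPM in FL LMPP against 76.3 and 66.8 CPM in FL HSC, without overlap (0.78 ± 0.27, adjusted p = 0.071 by edgeR). Nusap1, a microtubule-bundling protein, had 321, 209 and 388 CPM in ABM LMPP against 114, 89.7 and 160 CPM in ABM HSC (1.33 ± 0.27, adjusted p = 0.0073 by edgeR). Kif20b, a kinesin of late cytokinesis, had 109, 87.7 and 116 CPM in ABM LMPP against 64.4, 60.2 and 66.8 CPM in ABM HSC (0.71 ± 0.15, adjusted p = 0.011 by edgeR), while its fetal groups overlapped, with 85.3, 99.0 and 78.7 CPM in FL LMPP and 83.3 and 74.9 CPM in FL HSC. Tpx2, which activates Aurka on the spindle, had 265, 222 and 232 CPM in FL LMPP against 166 and 126 CPM in FL HSC (0.71 ± 0.21, adjusted p = 0.04 by edgeR). Kif2c, which takes microtubule ends apart at centromeres, had 179, 163 and 139 CPM in FL LMPP against 96.6 and 69.7 CPM in FL HSC, apart in every library but just short of the threshold (0.95 ± 0.30, adjusted p = 0.052 by edgeR).

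At the centromere and kinetochore, 5 of 6 genes rose in ABM LMPP against ABM HSC. In FL LMPP against FL HSC edgeR and DESeq2 each called 0 of the 6, where 8.21% and 11.8% of all genes were higher. For 6 genes, 0 calls is near these shares. At an unadjusted p under 0.05 there were 0, where 2265 of all 14720 genes were higher and 2643 lower. Without the 3 libraries that stand apart edgeR called 1 of the 6 higher (17.9% of all genes). Cenpa, the histone variant that marks the centromere, had 198, 132 and 260 CPM in ABM LMPP against 74.5, 53.6 and 109 CPM in ABM HSC (1.31 ± 0.30, adjusted p = 0.013 by edgeR). Cenpe, a kinesin that moves chromosomes to the spindle equator, had 90.6, 75.0 and 101 CPM in ABM LMPP against 49.8, 41.9 and 44.8 CPM in ABM HSC (0.97 ± 0.21, adjusted p = 0.0098 by edgeR), but 62.4, 107 and 81.0 CPM in FL LMPP and 84.4 and 74.2 CPM in FL HSC, which overlapped. Cenpf had 127, 81.8 and 75.4 CPM in ABM LMPP against 54.0, 40.1 and 25.0 CPM in ABM HSC, without overlap (1.25 ± 0.31, adjusted p = 0.021 by edgeR). In the fetal liver Cenpf had the lowest difference of the 42 genes, -0.36 ± 0.34 (adjusted p = 0.51 by edgeR), with 45.3, 71.1 and 48.3 CPM in FL LMPP and 80.1 and 61.0 CPM in FL HSC. Ndc80, Nuf2 and Spc25, subunits of the complex that grips microtubules, had fetal differences of 0.54 ± 0.35 (adjusted p = 0.31 by edgeR), 0.62 ± 0.31 (adjusted p = 0.19) and 0.67 ± 0.46 (adjusted p = 0.34). Ndc80 had 136, 104 and 109 CPM in FL LMPP against 81.0 and 78.6 CPM in FL HSC. Nuf2 had 171, 117 and 119 CPM in FL LMPP against 107 and 69.7 CPM in FL HSC, and Spc25 had 217, 166 and 135 CPM in FL LMPP against 125 and 91.6 CPM in FL HSC. For all 3 every FL LMPP library was above both FL HSC libraries.

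Both genes of mitotic chromosomes rose in ABM LMPP against ABM HSC. Top2a, the topoisomerase that untangles sister chromosomes, had 579, 492 and 340 CPM in ABM LMPP against 265, 235 and 124 CPM in ABM HSC (1.18 ± 0.28, adjusted p = 0.017 by edgeR). Mki67, the proliferation marker that coats mitotic chromosomes, had 197, 142 and 142 CPM in ABM LMPP against 86.6, 77.9 and 74.4 CPM in ABM HSC (1.01 ± 0.26, adjusted p = 0.022 by edgeR). In the fetal liver Top2a had 387, 480 and 448 CPM in FL LMPP against 336 and 246 CPM in FL HSC (0.59 ± 0.32, adjusted p = 0.22 by edgeR). Mki67 had 73.4, 121 and 80.4 CPM in FL LMPP and 124 and 69.4 CPM in FL HSC, and FL HSC 1 was the highest of the 5 (-0.07 ± 0.28, adjusted p = 0.89 by edgeR). Over the 42 genes the fetal log2 difference fell with exon length (r = -0.60, across genes, which are not independent replicates), against r = -0.03 for the adult one. Over all 14720 genes tested r was -0.12 in the fetal comparison and -0.09 in the adult one. Mki67, Cenpe and Cenpf, at 10.1, 7.76 and 11.1 kb, have the longest exons of the set, and FL LMPP 1, a library that stands apart by length, enters the fetal comparison with no counterpart in FL HSC. The part of length in these fetal values was not tested gene by gene, and with offsets for each library's length trend, added after the data were seen, the fetal count was 22 of 42.

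Genes of the central spindle and cytokinesis rose at both ages, with 5 of 6 called in ABM LMPP against ABM HSC and 5 of 6 in FL LMPP against FL HSC. Ect2, the exchange factor that activates RhoA to form the contractile ring, lies at chr3:27097222-27153878 on the minus strand. It had 174, 186 and 181 CPM in FL LMPP 1 to 3, against 115 and 82.4 CPM in FL HSC 1 and 2. It had 199, 155 and 148 CPM in ABM LMPP 1 to 3, against 29.6, 32.2 and 33.1 CPM in ABM HSC 1 to 3. The 3 ABM HSC libraries were below every other library, and the adult log2 difference of 2.40 ± 0.17 (adjusted p = 1.9e-05 by edgeR) was the highest of the 42 genes, against 0.87 ± 0.19 (adjusted p = 0.011) in the fetal liver. Kif23 and Racgap1 encode the centralspindlin complex, which binds Ect2 at the spindle midzone. Kif23, at chr9:61917278-61946799 on the minus strand, had 158, 178 and 140 CPM in FL LMPP against 90.5 and 71.9 CPM in FL HSC, and 139, 132 and 143 CPM in ABM LMPP against 55.2, 46.1 and 50.9 CPM in ABM HSC. Its adult difference of 1.44 ± 0.15 (adjusted p = 0.00017 by edgeR) came after those of Ect2 and Ube2c, and its fetal difference was 0.97 ± 0.17 (adjusted p = 0.0045). Racgap1 had smaller differences, of 0.72 ± 0.19 (adjusted p = 0.027 by edgeR) in the fetal liver and 0.70 ± 0.17 (adjusted p = 0.017) in the bone marrow. Kif20a, a kinesin that brings the passenger complex to the midzone, had 399, 348 and 304 CPM in FL LMPP against 204 and 159 CPM in FL HSC, and 197, 185 and 242 CPM in ABM LMPP against 122, 92.2 and 131 CPM in ABM HSC. It was apart in every library at both ages, by 0.95 ± 0.21 (adjusted p = 0.013 by edgeR) and 0.85 ± 0.18 (adjusted p = 0.0099). Prc1, the bundler of midzone microtubules, was called with 0.73 ± 0.22 (adjusted p = 0.045 by edgeR) and 0.76 ± 0.20 (adjusted p = 0.022), and Anln, an actin-binding scaffold of the ring, was not (0.54 ± 0.34, adjusted p = 0.3, and 0.79 ± 0.30, adjusted p = 0.11).

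**Figure D4:**
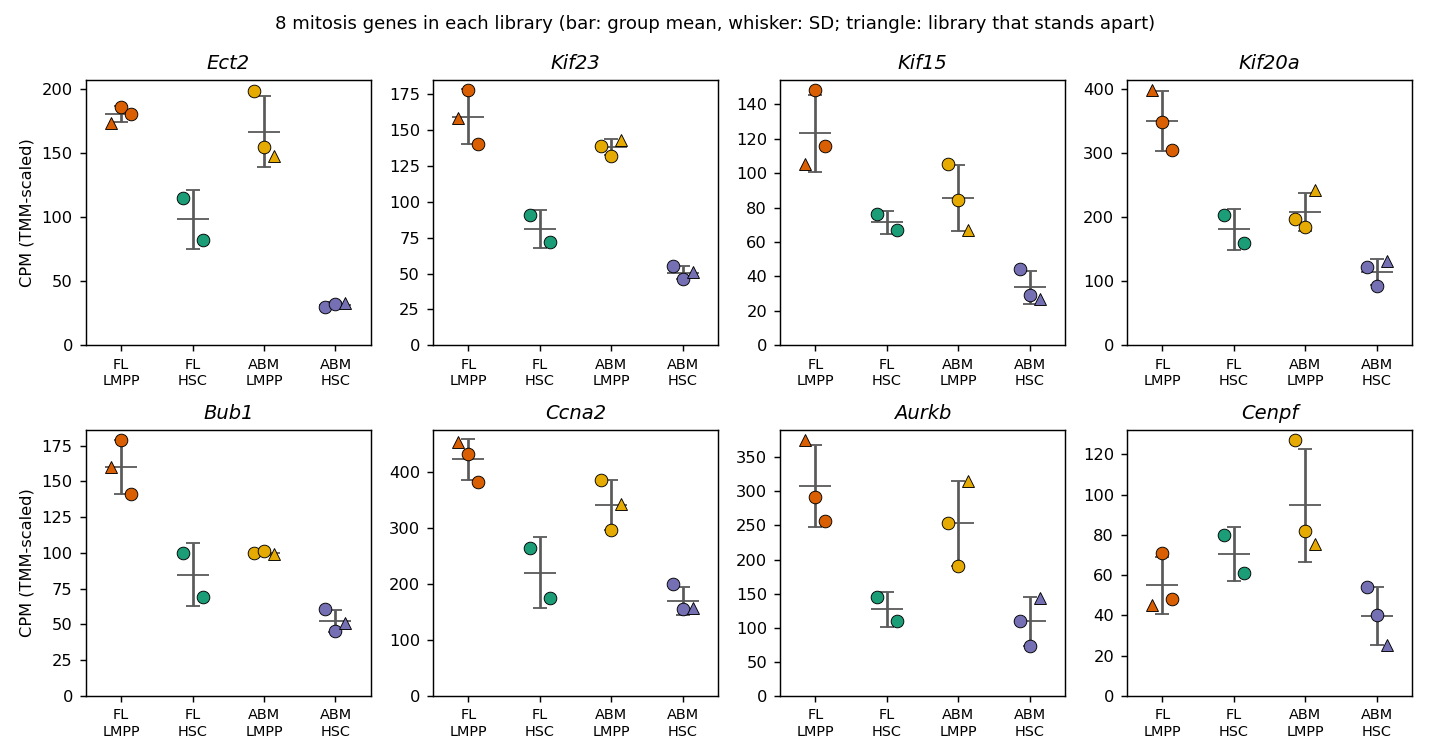
CPM (TMM-scaled, vertical axis from 0) of 8 mitosis genes in each library of FL LMPP, FL HSC, ABM LMPP and ABM HSC, with the group mean (bar) and SD (whisker), and triangles for FL LMPP 1, ABM LMPP 3 and ABM HSC 3. Ect2 sits at 29.6 to 33.1 CPM in ABM HSC and at 82.4 to 115 CPM in FL HSC, while its LMPP libraries of both ages lie between 148 and 199 CPM.

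Fetal and adult HSC differed in few of the 42 genes by the test. In FL HSC against ABM HSC 3 genes rose, Ect2, Kif15 and Kif23, where 2.07% of all genes rose, and 0 fell, where 2.89% of all genes fell. DESeq2 called 5 higher, where 4.54% of all genes were, and 0 lower, where 6.17% were. At an unadjusted p under 0.05, 13 genes were higher in FL HSC and 0 lower, where 1257 and 1486 of all 14720 genes were. The median log2 difference was 0.42, against 0 over all genes, and 39 of the 42 genes had an estimate above 0, against 49.7% of all genes. The libraries did not overlap, with FL HSC higher, for 16 of 42 genes (20.8% of all genes). Ect2 was higher by 1.64 ± 0.18 (adjusted p = 6e-04 by edgeR), with both FL HSC libraries above all 3 ABM HSC libraries at the values given above. This call held in all 15 alternative analyses run for it, with differences of 1.38 to 1.86 and adjusted p of 3.8e-14 to 0.018. Kif15, at chr9:122951081-123018733 on the plus strand, was higher by 1.09 ± 0.26 (adjusted p = 0.039 by edgeR) and Kif23 by 0.68 ± 0.16 (adjusted p = 0.04). The Kif15 call was lost without FL HSC 1 (adjusted p = 0.28 by edgeR), FL HSC 2 (0.17), ABM HSC 2 (0.12) or ABM HSC 3 (0.082), with differences of 0.96 to 1.19. The Kif23 call was lost without any 1 of the 5 HSC libraries (adjusted p of 0.059 to 0.4 by edgeR), with differences of 0.50 to 0.84.

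Just short of the threshold stood Bub1 (0.70 ± 0.19, adjusted p = 0.071 by edgeR), Cenpe (0.80 ± 0.23, adjusted p = 0.076) and Kif20a (0.66 ± 0.20, adjusted p = 0.1), each without overlap of the libraries. Bub1 had 100 and 69.2 CPM in FL HSC, against 60.4, 45.2 and 50.8 CPM in ABM HSC. At the other end, Mad2l1, the checkpoint protein that inhibits Cdc20, had 114 and 85.5 CPM in FL HSC and 104, 77.2 and 141 CPM in ABM HSC, the lowest difference of the set (-0.11 ± 0.29, adjusted p = 0.9 by edgeR). Without the 3 libraries that stand apart, of which 1 is ABM HSC 3, 11 genes were higher in FL HSC, where 7.59% of all genes were, and 0 lower, where 8.59% were. The 12 erythroblast markers summed to 994 to 1110 CPM in FL HSC, against 80.4 to 154 CPM in ABM HSC, and 9 of the 12 had a higher mean in FL HSC. Only Hbb-bt and Hbb-b1, globin genes with near-identical copies, were called. Of markers of later erythroblasts, Slc4a1 had 0.118 and 0.244 CPM and Alas2 had 0.236 and 0.0975 CPM in FL HSC 1 and 2. The part of erythroid cells in the mitosis gene differences was not tested.

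Fetal and adult LMPP also differed in few of the 42 genes. In FL LMPP against ABM LMPP, Kif20a and Bub1 rose, 2 of the 42, where 7.08% of all genes rose, and 0 fell, where 8.29% of all genes fell. DESeq2 called 3 higher and 2 lower, where 10.8% and 12.4% of all genes were. At an unadjusted p under 0.05, 4 genes were higher and 3 lower, where 2209 and 2256 of all 14720 genes were. The calls shared no gene with those of FL HSC against ABM HSC, but with 2 and 3 calls among 42 genes little overlap could arise. Between FL HSC and ABM HSC, Bub1 and Kif20a differed by 0.70 and 0.66 (adjusted p = 0.071 and 0.1 by edgeR). Ect2, Kif15 and Kif23, the genes called there, differed by 0.11, 0.52 and 0.20 between FL LMPP and ABM LMPP. The median log2 difference was 0.18, against 0 over all genes, and 28 of 42 estimates were above 0, against 49.7% of all genes. Libraries did not overlap for 6 genes with FL LMPP higher (17.8% of all genes) and for 3 with FL LMPP lower (16.9%). Kif20a, on chr18:34624936-34633277 (plus strand), had 399, 348 and 304 CPM in FL LMPP against 197, 185 and 242 CPM in ABM LMPP, a difference of 0.75 ± 0.18 (adjusted p = 0.02 by edgeR). Bub1, on chr2:127800200-127831859 (minus strand), had 160, 179 and 141 CPM in FL LMPP against 100, 101 and 98.8 CPM in ABM LMPP, a difference of 0.67 ± 0.18 (adjusted p = 0.027 by edgeR). For both genes every FL LMPP library was above every ABM LMPP library. The Bub1 call was lost without any 1 of FL LMPP 1 and 2 and ABM LMPP 1 to 3 (adjusted p of 0.064 to 0.1 by edgeR), with differences of 0.59 to 0.68. The Kif20a call was lost without FL LMPP 1 (0.065), FL LMPP 2 (0.057), ABM LMPP 1 (0.075) or ABM LMPP 2 (0.07), with differences of 0.64 to 0.76.

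The lowest LMPP difference belonged to Mki67, with 73.4, 121 and 80.4 CPM in FL LMPP against 197, 142 and 142 CPM in ABM LMPP (-0.81 ± 0.26, adjusted p = 0.057 by edgeR). Cdc25b (-0.72 ± 0.22, adjusted p = 0.053 by edgeR) and Cenpf (-0.79 ± 0.31, adjusted p = 0.12) were the other genes with all FL LMPP libraries below all ABM LMPP libraries. Ect2 differed by 0.11 ± 0.16 (adjusted p = 0.71 by edgeR) between FL LMPP and ABM LMPP. Without the 3 libraries that stand apart, 5 genes were higher in FL LMPP and 2 lower, where 15.2% of all genes were higher and 15.3% lower. With length-trend offsets, added after the data were seen, 2 were higher and 1 lower, and neither of the 2 was Kif20a (adjusted p = 0.063 by edgeR) or Bub1 (0.11). Erythroblast markers summed to 213 to 437 CPM in FL LMPP, against 44.2 to 93.1 CPM in ABM LMPP, with 8 of 12 means higher in FL LMPP and Epb42 and Slc4a1 at 0 in both groups. Megakaryocyte markers summed to 225 to 392 CPM in FL LMPP, against 81.0 to 103 CPM in ABM LMPP. Their part was not tested.

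**Figure D5:**
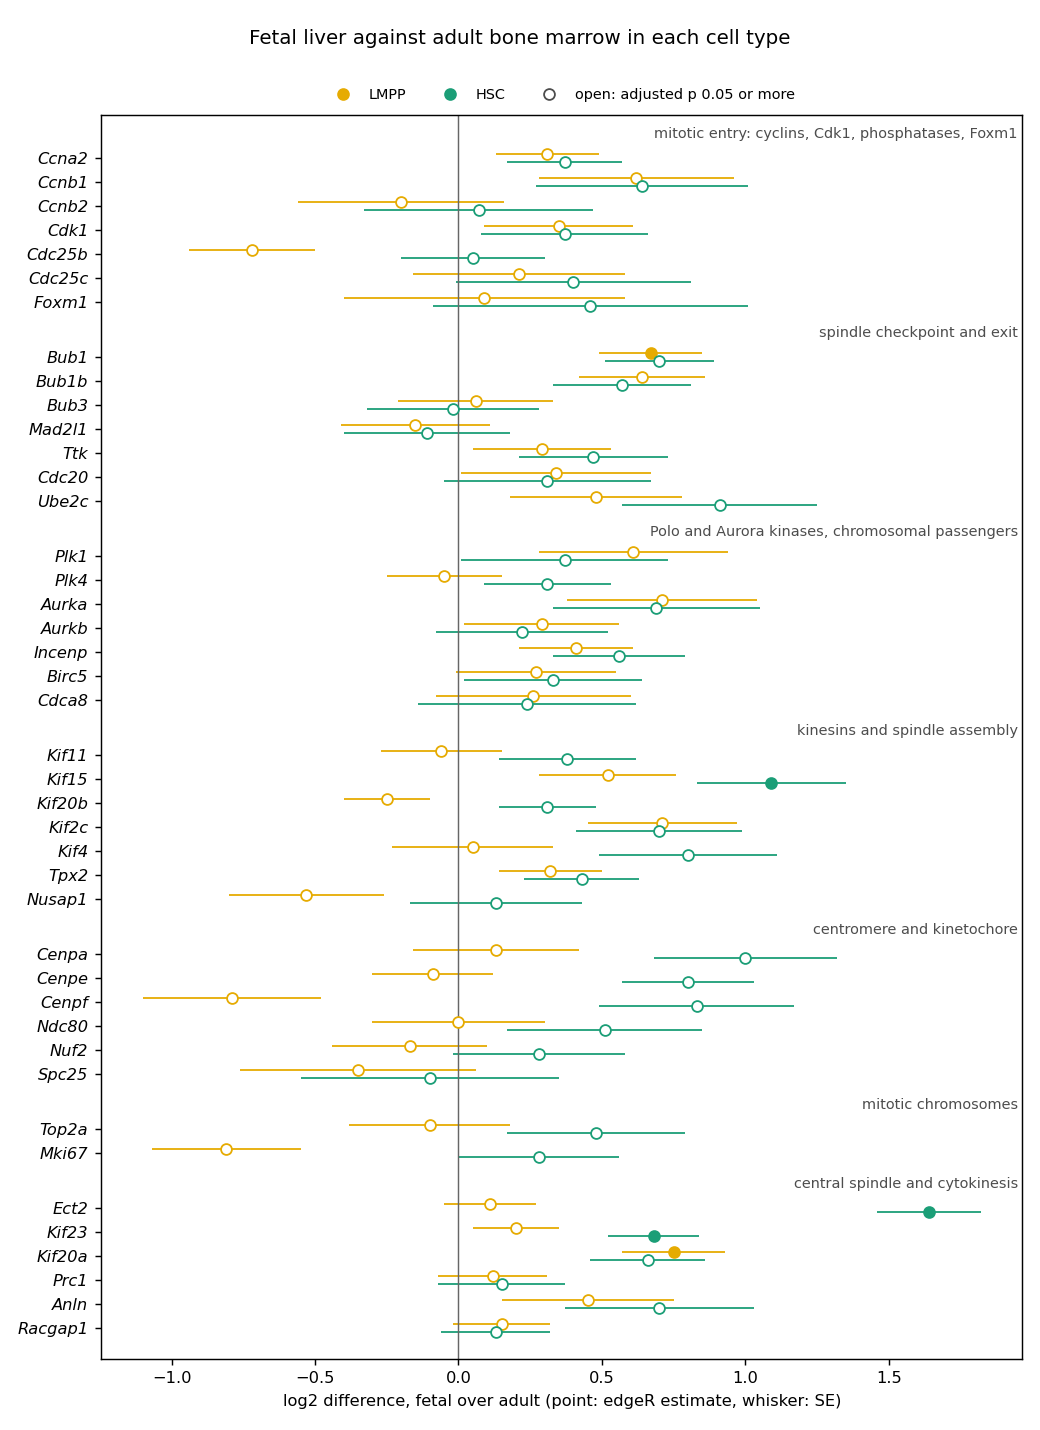
Log2 difference of fetal liver over adult bone marrow (edgeR estimate, whisker SE) for each of the 42 mitosis genes in LMPP and in HSC, ordered by role, with filled points for an adjusted p under 0.05. Ect2 reaches 1.64 in HSC and 0.11 in LMPP, and the filled points are Ect2, Kif15 and Kif23 in HSC and Kif20a and Bub1 in LMPP.

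The fetal against adult difference was set against itself in the 2 cell types by an interaction term, the difference in LMPP minus that in HSC, which equals the LMPP against HSC difference in the fetal liver minus that in the bone marrow. Of the 42 genes 1 was called, with a lower value (0.543% of all genes were lower), and 0 with a higher one (0.387% of all genes). At an unadjusted p under 0.05 there were 6 lower and 0 higher, where 954 and 945 of all 14720 genes were. DESeq2 called 2 lower and 0 higher, where 2.52% and 2.11% of all genes were. Without the 3 libraries that stand apart 1 was lower and 0 higher, where 3.18% and 2.29% of all genes were. The called gene was Ect2, at -1.53 ± 0.24 (adjusted p = 0.018 by edgeR). Its fetal against adult difference was 0.11 in LMPP and 1.64 in HSC, and its LMPP against HSC difference was 0.87 in the fetal liver and 2.40 in the bone marrow. The call was lost without FL HSC 1 (-1.27, adjusted p = 0.11 by edgeR), FL LMPP 3 (-1.53, adjusted p = 0.051) or ABM HSC 1 (-1.48, adjusted p = 0.052). Cenpf had a larger value of -1.62 ± 0.46 that did not pass (adjusted p = 0.16 by edgeR, against 0.025 in DESeq2). Plk1 had the highest value, 0.24 ± 0.49 (adjusted p = 0.92 by edgeR). The median over the 42 genes was -0.22, against 0.01 over all genes, and 32 of the 42 values were below 0. Over the 42 genes the value correlated with log2 exon length at r = -0.50, against -0.02 over all genes.

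Other genes of the same processes were taken from lists of 63 further mitosis genes, 18 MuvB, B-Myb and E2F partners and 26 further cytokinesis and abscission genes, taken by function. Of the 63, 32 rose in ABM LMPP against ABM HSC (7.76% of all genes) and 9 in FL LMPP against FL HSC (8.21%), with 0 lower in edgeR at either age. DESeq2 called 39 higher and 1 lower in the adult comparison (10.3% and 12.6% of all genes) and 18 higher and 0 lower in the fetal one (11.8% and 13.6%). At an unadjusted p under 0.05 the lower genes were 1 and 0, where 2426 and 2643 of all 14720 genes were lower. Without the 3 libraries that stand apart, edgeR called 40 of the 63 higher and 2 lower in the adult comparison (14% and 15.9% of all genes). In the fetal one it called 21 higher and 1 lower (17.9% and 20.6%). The median log2 differences of the 63 genes with all libraries were 0.86 and 0.52. Ncaph, a condensin subunit, led the adult comparison with 139 ± 22.7 CPM in ABM LMPP and 62.9 ± 7.79 CPM in ABM HSC (SD, n = 3 each; adjusted p = 0.0021 by edgeR), followed by Depdc1a (1.39 ± 0.24 on the log2 scale, adjusted p = 0.0029). Tacc3, a spindle protein, led the fetal one with 517 ± 73.2 CPM in FL LMPP and 208 ± 40.2 CPM in FL HSC (n = 3 and 2; adjusted p = 0.021 by edgeR), followed by Cdca3, with 129 ± 9.89 CPM in FL LMPP and 60.7 ± 10.6 CPM in FL HSC (adjusted p = 0.025). Between FL HSC and ABM HSC 0 of the 63 were called in edgeR (2.07% of all genes were higher) and 3 in DESeq2, all higher (4.54%). At an unadjusted p under 0.05, 13 were higher in FL HSC and 0 lower, where 1257 and 1486 of all 14720 genes were. The lowest p belonged to Zwilch, a subunit of a checkpoint complex at the kinetochore (0.74 ± 0.20, adjusted p = 0.069 by edgeR), and Ncapg, a condensin subunit (0.72 ± 0.21, adjusted p = 0.077). Between FL LMPP and ABM LMPP 1 rose (7.08% of all genes), Bora, an activator of Plk1, with 92.3 ± 17.6 CPM in FL LMPP and 53.2 ± 2.40 CPM in ABM LMPP (n = 3 each; adjusted p = 0.012 by edgeR).

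Of the 18 MuvB, B-Myb and E2F partners edgeR called 0 in ABM LMPP against ABM HSC, and DESeq2 called 1 higher (10.3% of all genes), with a median of 0.09. At an unadjusted p under 0.05, 2 were higher and 1 lower, where 1937 and 2426 of all 14720 genes were. By edgeR 2 were called higher in FL LMPP than in FL HSC (8.21% of all genes). They were Rbbp4, a MuvB subunit, with 825 ± 62.1 CPM in FL LMPP and 439 ± 103 CPM in FL HSC (n = 3 and 2; adjusted p = 0.0063 by edgeR), and Tfdp1, the dimer partner of E2F proteins, with 583 ± 28.5 and 332 ± 37.4 CPM (adjusted p = 0.0035 by edgeR). Of the 18, 4 were called higher in FL LMPP than in ABM LMPP (7.08% of all genes), among them E2f5, with 36.3 ± 1.97 CPM in FL LMPP and 14.2 ± 4.49 CPM in ABM LMPP (n = 3 each; adjusted p = 0.006 by edgeR). Of the 26 further cytokinesis and abscission genes 2 rose and 1 fell in ABM LMPP against ABM HSC (7.76% and 9.33% of all genes), and 0 rose and 1 fell in FL LMPP against FL HSC (8.21% and 9.85%). In the latter 1 was higher at an unadjusted p under 0.05 (2265 of all 14720 genes) and DESeq2 called 0 higher (11.8%). Of the 26, 3 were called higher in FL LMPP than in ABM LMPP (7.08% of all genes), among them the septin gene Sept2 (0.58 ± 0.15, adjusted p = 0.029 by edgeR) and Myh10 (3.25 ± 0.66, adjusted p = 0.0092), and 1 was called lower (8.29%). Cep55, which recruits the abscission machinery, had 74.9 ± 18.5 CPM in ABM LMPP and 31.2 ± 10.9 CPM in ABM HSC (n = 3 each; adjusted p = 0.019 by edgeR). The gene that fell in LMPP against HSC at both ages was Myh10, which encodes a nonmuscle myosin II heavy chain. It had 2.06, 2.77 and 1.87 CPM in FL LMPP against 26.2 and 20.3 CPM in FL HSC (-3.38 ± 0.63, adjusted p = 0.0061 by edgeR), and 0.152, 0.448 and 0.0655 CPM in ABM LMPP against 10.4, 10.2 and 2.87 CPM in ABM HSC (-5.05 ± 0.69, adjusted p = 0.00086). ABM LMPP 3 was below the floor of 3 counts, 0.0982 CPM in that library, so the fitted adult value depends on the prior count.

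Open chromatin was described by 1 deposited list of peaks per population, with 37156 distinct peaks in FL LMPP, 48286 in FL HSC, 50579 in ABM LMPP and 53068 in ABM HSC, and no test was made between lists. A peak within 500 bases of the start was listed for all 42 genes in FL LMPP and FL HSC and for 41 in ABM LMPP and ABM HSC, against 75.0%, 80.4%, 79.0% and 81.9% of all tested genes. The exception was Ccna2, whose fetal peaks have their summits 830 and 833 bases downstream of the start. With 1000 bases on each side all 42 genes had a peak in every list. The signal value of the mitosis gene peaks, the authors' enrichment, had a median percentile within its own list of 82.3 in FL LMPP, 88.8 in FL HSC, 87.0 in ABM LMPP and 88.1 in ABM HSC. Over all tested genes with a peak the medians were 69.9, 74.3, 70.1 and 71.7. The summit lay within 250 bases of the start for 40 genes in FL LMPP, 40 in FL HSC, 40 in ABM LMPP and 39 in ABM HSC, the window that holds the CHR and CCAAT letters printed above.

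The start of Ect2 was open in all 4 lists, with summits 19 bases upstream in FL LMPP, 53 in FL HSC, 25 in ABM LMPP and 32 in ABM HSC. Its signal stood at percentiles 97.5, 94.4, 95.1 and 91.9 of those lists. The ABM HSC list, from the group with the lowest Ect2 RNA, held 3 further peaks inside Ect2, at chr3:27107262-27107456, chr3:27118274-27118528 and chr3:27121018-27121252, which lie 46.5, 35.5 and 32.7 kb downstream of the start. The other 3 lists held 0 further peaks inside Ect2. These 3 peaks were weak, at percentiles 11.1, 28.1 and 15.8 of their list, and that list is the longest of the 4, so a peak near the authors' cutoff in it can be missing from a shorter list. Within the gene or 10 kb of it, peaks other than that at the start were listed for 20 of the 42 genes in FL LMPP, 20 in FL HSC, 23 in ABM LMPP and 25 in ABM HSC. The same share was not taken over all genes, and the lists differ in length, so these counts show no trait of the 42 genes. The reach also takes in peaks at other genes, such as Rplp1 near Kif23 in all 4 lists. Ccna2 was counted in the adult lists alone, where it had no peak within 500 bases of its start.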

How the data were processed

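RNA-seq (SMART-Seq v4 with Nextera XT, which keeps no strand and adds no molecular identifiers) and ATAC-seq were made from the sorted populations. The deposited RNA table holds raw exon counts per gene, made with HOMER's analyzeRepeats on mm10 per the file headers. They are handled here like estimated counts, since 22.5% of the deposited values are not whole but lie in steps of 0.5, and they were rounded for the tests. The submitters' processing notes also name Trim Galore, STAR, RSEM, DESeq2, Bowtie2 2.3.5, Picard, SAMtools 1.9 and MACS2, and the builds GRCm38.p5, mm10 and NCBIM37, without giving their roles. The deposited peak lists, 1 per population, give each peak's enrichment as the authors' signal value and a −log10 q value. No source used here says whether reads were pooled before peak calling. The table held 0 columns of other libraries and 0 rows without a gene name.

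Here edgeR 4.0.16 (quasi-likelihood test, TMM, all 11 libraries in 1 fit of 4 groups, R 4.3.3) was run on the 14720 genes that passed filterByExpr. P-values were adjusted over all of them with a threshold of 0.05. The spread across genes had a biological coefficient of variation of 0.372. DESeq2 1.42.0 served as an alternative, and Python 3.11.15 with pandas 2.3.3 the peaks and promoters. The fit was tested on simulated counts. The peak overlap was checked against plain enumeration for randomly drawn genes with the FL HSC list. Totals of 19799398.5 to 64783926.5 counts put the floor of 3 counts at 0.0498 to 0.152 CPM, which covers counting error only. A promoter had a peak where one overlapped the start widened by 500 bases by at least 1 base.

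The 42 genes, the other gene lists, the markers and the 3 libraries called apart were chosen with earlier results of these data known, and count as no independent evidence. Values in every library were given for genes called in a fetal against adult comparison or the interaction, the 3 lowest p of each role in each LMPP against HSC comparison and the extremes of each comparison, and genes of the other lists were taken from the 2 lowest p per comparison. Further genes were named after their values were seen. Same-numbered libraries of ABM LMPP and ABM HSC deviated together (r = 0.15, 0.31 and 0.47 over genes). So did ABM LMPP 2 with ABM HSC 1 (0.22) and ABM LMPP 1 with ABM HSC 2 (0.13). Pairs of a library numbered 3 with a library numbered 1 or 2 had r of -0.37 to -0.19. The values thus set the libraries numbered 3 apart and do not single out same-numbered pairs. In the other comparisons same-numbered libraries had r of -0.17 to 0.10.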

Additional observations from a re-analysis of the deposited data

Results flagged for a closer look

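Ect2 differed between cell types in its fetal against adult difference. The interaction, the difference in LMPP minus that in HSC, was -1.53 ± 0.24 on the log2 scale (adjusted p = 0.018 by edgeR). All 3 FL LMPP libraries (174 to 186 CPM) lay within the range of the 3 ABM LMPP libraries (148 to 199 CPM), while both FL HSC libraries (82.4 and 115 CPM) lay above the 3 ABM HSC libraries (29.6 to 33.1 CPM). The test was the interaction term of the fit over all genes. Leaving out FL LMPP 1, ABM LMPP 3 and ABM HSC 3, the Ect2 value was -1.62 (adjusted p = 0.0092 by edgeR).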

How the results depend on the processing

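No called gene changed direction in any alternative run. Shares of all genes are given above for DESeq2 and for the fit without the 3 libraries. Counts in the other settings come without such a share, so they do not show whether all genes shifted alike. Of FL HSC against ABM HSC, 3 genes higher became 5 with DESeq2, 1 with only the 2 groups compared, 11 without the 3 libraries that stand apart, 13 with a term for them and 6 with length-trend offsets and the replicate block. Leaving out 1 library at a time gave 1 to 3. Of FL LMPP against ABM LMPP, 2 higher became 4 with only the 2 groups, 5 without the 3 libraries, 8 with a term for them and 7 with length-trend offsets and the block, and 0 lower became 2 with DESeq2, 1 with a filter of 1 CPM in 2 libraries, 2 without the 3 libraries, 4 with the term, 1 with length-trend offsets and 1 with these and the block. Leaving out 1 library gave 0 to 2 higher and 0 to 1 lower.

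Of ABM LMPP against ABM HSC, 32 higher became 19 with only the 2 groups, and 14 to 37 on leaving out 1 library. Of FL LMPP against FL HSC, 12 higher became 19 with DESeq2, 29 with only the 2 groups, 27 without the 3 libraries, 25 with the term, 22 with length-trend offsets and 25 with these and the block, and 0 to 8 on leaving out 1 library, with 0 without FL HSC 2. Of the interaction, 1 lower became 2 with DESeq2, 2 with the term, 0 with the replicate block and 0 to 1 on leaving out 1 library. The cause of these changes was not tested, except that leaving out libraries leaves fewer samples, and where it leaves FL HSC with 1 library, that library is assumed to vary like the other groups.

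Outside the comparison of the adult groups, same-numbered libraries had r of -0.17 to 0.10. There the block gave 2 genes higher in FL HSC, where Kif15 (adjusted p = 0.063 by edgeR) and Kif23 (0.086) were lost, 3 higher in FL LMPP against ABM LMPP and 16 higher in FL LMPP against FL HSC. Ect2 stood at an adjusted p of 0.05 in the interaction. In the adult comparison, where r does not single out same-numbered libraries, the block gave 36, and 42 with only the 2 groups, and no call was lost. Offsets and the last of these were added after the data were seen. Counts of promoters with a peak stayed within 1.5 times under every alternative. With 2 or 3 libraries a group and a coefficient of variation of 0.372, differences like those at an adjusted p just above 0.05 could not be told from the spread.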

Other observations

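Medians of the log2 differences by role were as follows, with no test of a difference between roles. For the interaction the median was -0.19 over the 7 genes of mitotic entry, -0.03 over the 7 checkpoint and exit genes, 0.03 over the 7 Polo, Aurora and passenger genes, -0.56 over the 7 kinesins and spindle assembly genes, -0.69 over the 6 genes of the centromere and kinetochore, -0.83 over the 2 genes of mitotic chromosomes and -0.14 over the 6 cytokinesis genes, against 0.01 over all genes tested. In the same order, 0, 3, 4, 1, 0, 0 and 2 values were above 0. In FL LMPP against ABM LMPP the medians were 0.21, 0.34, 0.29, 0.05, -0.13, -0.45 and 0.18, and in FL HSC against ABM HSC they were 0.37, 0.47, 0.33, 0.43, 0.65, 0.38 and 0.67. Without the 3 libraries that stand apart, edgeR called 6, 6, 6, 7, 6, 2 and 5 genes higher in ABM LMPP against ABM HSC (14% of all genes). In FL LMPP against FL HSC it then called 5, 5, 7, 3, 1, 1 and 5 higher (17.9% of all genes).

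The share of all counts that fell on the 42 genes ran from 0.751% to 0.854% in FL LMPP, was 0.494% and 0.634% in FL HSC, and ran from 0.632% to 0.846% in ABM LMPP and from 0.344% to 0.454% in ABM HSC. Each LMPP share was above each ABM HSC share, while ABM LMPP 2 (0.632%) was just under FL HSC 1 (0.634%). The median mitosis gene was higher by 0.40 on the log2 scale in FL HSC 1 than in FL HSC 2, against a median FL LMPP against FL HSC difference of 0.72.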
